A study of Mus musculus with 6 samples.

Results

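The loci described here are those of 9 genes that place, copy and remove DNA methylation, and the members are the ATAC-seq peaks that overlapped the body of one of these genes or lay within 20 kb of it. Of the 22698 peaks of the WT list on chromosomes 1 to 19 and X, 32 met this rule (0.141%), and of the 23656 peaks of the Spen KO clone 3 list, 25 did. The 9 genes, of 22342 protein-coding genes in the GENCODE annotation of mm9, were Dnmt1, Uhrf1, Dnmt3a, Dnmt3b, Dnmt3l, Tet1, Tet2, Tet3 and Tdg. ATAC-seq marks open chromatin as the places where the Tn5 transposase can insert sequencing adapters, so a peak is a stretch of accessible DNA and not a measure of transcription or of methylation.

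The cells were HATX, a line of haploid mouse embryonic stem cells (mESCs) of mixed genomic background with an Xist transgene that doxycycline switches on, and they were grown in serum and LIF on gelatin. The 6 samples were WT HATX, Spen KO clone 2 and Spen KO clone 3, each untreated or given doxycycline at 2 ug/ml for 48 hr. Spen is a large RNA-binding repressor that Xist needs to silence genes, and each knockout line was 1 clone, so a difference from WT cannot be told apart from a difference between clones. The 2 peak lists analysed here were 1 for WT and 1 for Spen KO clone 3, and neither states whether its cells had received doxycycline. Spen KO clone 2 was not analysed here.

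DNA methylation in mammals sits mostly on the cytosine of CpG, the dinucleotide of cytosine followed by guanine. Dnmt3a and Dnmt3b add it to unmethylated DNA, helped by Dnmt3l, which has no catalytic activity of its own, and after each round of replication Dnmt1 copies it to the new strand where Uhrf1 has bound a CpG methylated on the old strand only. The Tet enzymes oxidise methylcytosine stepwise, and the glycosylase Tdg cuts out the most oxidised forms, after which base excision repair puts back an unmodified cytosine. mESCs grown in serum keep a highly methylated genome, while the CpG-rich starts of most genes stay unmethylated and accessible.

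Each peak carried a value from each of 2 replicates, technical ones by the authors' account, in units given nowhere in the files. Each value was therefore turned into a percentile among all peaks of its list and replicate, where 100 is the highest, and the percentile of the mean of both values is called the score percentile. A peak is called shared where at least 1 bp of it lay in a peak from the other line. A shared peak is called lower or higher in Spen KO clone 3 only where both of its replicate percentiles lay below, or above, both of those in WT, and otherwise the replicates overlapped. The samples behind the 2 values are not named. If they were the untreated and the doxycycline sample of a line, the gap between replicates also holds the treatment. With 1 list per line no test between the lines was possible, so counts are set beside the share of all peaks of the same kind, and Wilson intervals at 95% confidence cover counting error only. The read depth behind the lists is unknown. Across all peaks the replicates' values had a Spearman correlation of 0.829 for WT and 0.834 for the knockout, in lists that the authors had already limited to peaks on which the replicates agreed. The median gap between the replicate percentiles of a peak was 8.84 and 8.91 over all peaks, and 6.42 and 12.4 over the peaks of the 9 loci.

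Embryonic stem cell markers were partly covered. Of the 8 markers listed, 7 were found in the annotation, all 7 had a peak in or within 20 kb of the gene in both lists, and 4 had a peak within 1 kb of a start in each list. Pou5f1, Zfp42 and Esrrb had a start peak in both lists, Sox2 in WT, Klf4 in Spen KO clone 3, and Nanog and Dppa5a in neither. Of the 13 markers of other cell types, start peaks were present in WT at Gata4, Foxa2, Thy1, Pax6 and Olig2, and in Spen KO clone 3 at Eomes and Foxa2. Among all coding genes, 45.3% had a start peak in WT and 41.5% in Spen KO clone 3. The median coding gene had 1 peak in or within 20 kb of it in each list, so the 20 kb count says little about cell type. The part of the markers in the results below was not tested.

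In WT, 6 of the 9 genes had a peak within 1 kb of the start of one of their own coding transcripts, namely Dnmt1, Uhrf1, Dnmt3a, Dnmt3b, Tet2 and Tet3. In Spen KO clone 3 these were 5, the same genes without Tet3. Dnmt3l, Tet1 and Tdg had none in either list. Among all coding genes, 45.3% had such a start peak in WT and 41.5% in Spen KO clone 3. Over the 9 loci there was a median of 3.28 WT peaks and 2.55 Spen KO clone 3 peaks per 100 kb of gene and flanks, against 1.76 and 1.66 over all coding genes, although Tdg and Tet3, with 1.64 and 1.68 in Spen KO clone 3, were close to the median gene.

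**Figure D1:**
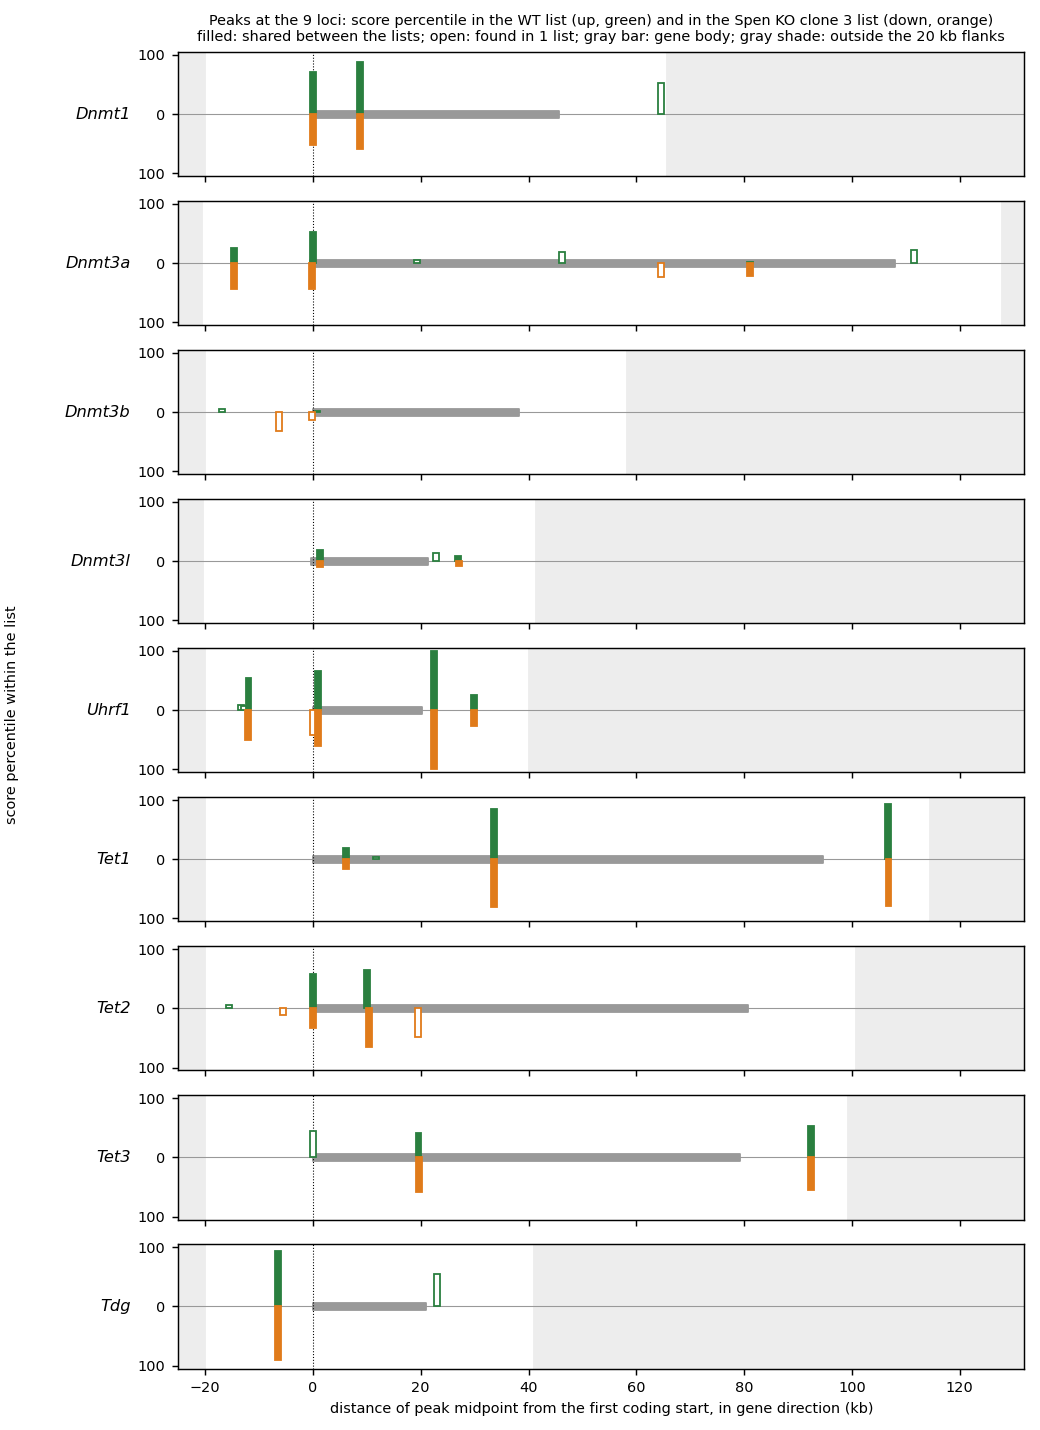
Peaks at the 9 loci, 1 row per gene, with the distance of the peak midpoint from the first annotated coding start in kb on the x axis and the score percentile on the y axis, upward for WT and downward for Spen KO clone 3. Filled bars are shared and open bars were found in 1 list, the gray bar is the gene body, and an open bar stands at the start of Tet3 in WT with no counterpart below it.

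Of the 32 WT peaks, 13 overlapped no Spen KO clone 3 peak (40.6%, interval 25.5 to 57.7), against 25.7% of all WT peaks. Of the 25 Spen KO clone 3 peaks, 6 overlapped no WT peak (24.0%, interval 11.5 to 43.4), against 28.6% of all peaks of that list. The interval of the WT share only just held that of its whole list, so neither share lay beyond counting error. Both intervals treat the peaks as independent, although they came from 9 loci, so they are too narrow where neighbouring peaks go together. Peaks found in 1 list were weak: their median score percentiles were 8.51 (WT) and 27.4 (Spen KO clone 3), against 53.8 and 51.6 for the shared peaks of the same loci. Over whole lists these medians were 20.2 and 23.1 for peaks found in 1 list.

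Split by position, 18 of the WT peaks lay within 1 kb of a start of some coding gene and 7 of them were found in WT only, against 20.6% of all such WT peaks. In Spen KO clone 3, 2 of 13 start peaks were found in that list only, against 13.4% of all. Of the distal peaks, 6 of 14 in WT and 4 of 12 in Spen KO clone 3 had no partner, against 29.4% and 37.8% of all distal peaks. Start peaks of a neighbouring gene made up much of the difference in number, since 5 of 12 in WT had no partner and 0 of 7 in Spen KO clone 3. These 5 were the start peak of Ppan beside Dnmt1, that of Commd7 beside Dnmt3b, that of Glt8d2 beside Tdg, and 2 weak peaks at Plin3 beside Uhrf1.

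**Figure D2:**
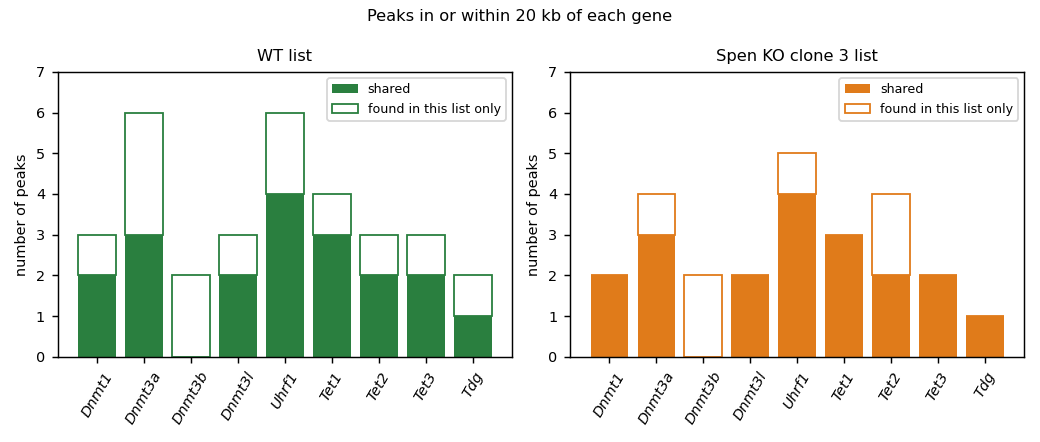
Number of peaks in or within 20 kb of each gene in the WT list (left) and the Spen KO clone 3 list (right), split into shared peaks (filled) and peaks found in that list only (open). Dnmt3b is the gene with no shared peak, and Tdg has the fewest in Spen KO clone 3, with 1.

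The 19 shared peaks split into 6 that were lower in Spen KO clone 3, 2 that were higher and 11 whose replicates overlapped. Over all 16870 shared pairs, 22.6% were lower and 23.1% higher. At starts of any coding gene, 5 of the 11 shared peaks were lower and none was higher, against 28.8% and 13.7% of all shared start peaks. Away from starts 1 of 8 was lower and 2 were higher, against 17.4% and 31.1% of all shared distal peaks. The median difference in score percentile, Spen KO clone 3 minus WT, was -2.70 over the 19 pairs (-4.22 without replicate 1 and -0.77 without replicate 2) and -0.00 over all pairs, while starts and distal sites of the whole lists stood at -2.59 and 3.16. At the members' own starts, 3 of the 4 shared peaks were lower, those of Dnmt1, Dnmt3a and Tet2, with a median difference of -13.5 over the 4, against -2.70 over the 7 shared starts of neighbouring genes and 1.12 over the 8 distal pairs. The lists differed in their mix, with 9715 start and 12983 distal peaks in WT against 8913 and 14743 in Spen KO clone 3, so the peaks were also ranked within starts and within distal peaks. Then 3 of the 11 start peaks were lower and 0 higher (all start peaks 24.8% and 16.4%), and 1 of 8 distal peaks was lower and 2 higher (all distal peaks 21.1% and 26.5%). The calls for the starts of Dnmt3a and Aire were lost, while those for the starts of Dnmt1, Tet2 and Ccar1 and for the 3 distal peaks were kept.

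**Figure D3:**
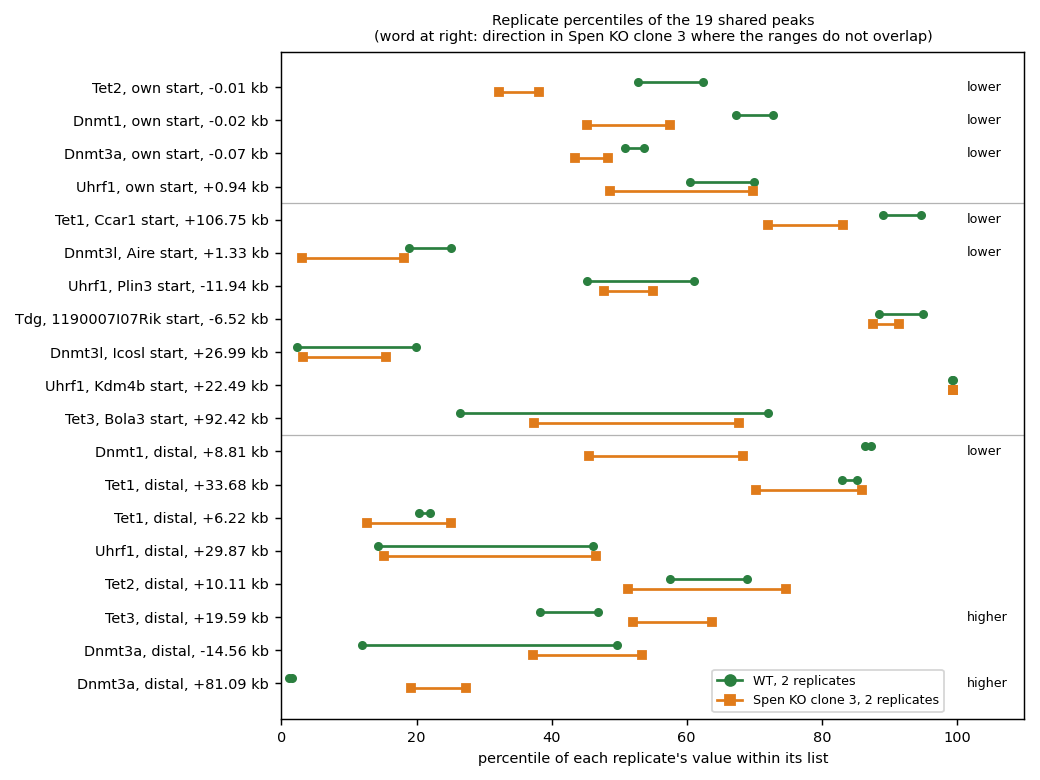
Percentile of each replicate's value within its list for the 19 shared peaks, as circles joined by a line for WT and squares for Spen KO clone 3, with own starts at the top, starts of other genes in the middle and distal peaks at the bottom. The lines do not overlap for 8 peaks, 6 of them lower and 2 higher in Spen KO clone 3.

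Sequences are shown for own-start peaks and for some of the peaks inside the genes that differed between the lists, and not for the starts of neighbouring genes. They were read from mm9 on the strand of the gene, 5′ to 3′, with each CpG in capitals. Each is the 200 bp around the peak midpoint, without bases annotated as untranslated, or the part of the peak upstream of its starts where little else was left. The maintenance genes are shown first, with the Dnmt1 start and intron peaks, both lower in Spen KO clone 3, then the Uhrf1 peak found in Spen KO clone 3 only, then the shared Uhrf1 start peak.
Dnmt1 start peak, upstream part, chr9:20757424-20757623, minus strand: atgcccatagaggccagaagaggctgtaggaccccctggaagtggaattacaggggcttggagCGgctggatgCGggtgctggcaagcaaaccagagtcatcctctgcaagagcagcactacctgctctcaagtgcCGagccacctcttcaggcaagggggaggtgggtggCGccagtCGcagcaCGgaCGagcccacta
Dnmt1 intron peak, chr9:20748411-20748610, minus strand: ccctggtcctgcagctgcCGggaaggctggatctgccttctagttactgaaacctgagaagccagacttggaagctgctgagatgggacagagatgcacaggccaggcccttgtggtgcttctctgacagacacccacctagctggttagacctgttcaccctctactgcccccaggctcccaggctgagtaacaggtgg
Uhrf1 first-start peak, Spen KO clone 3 only, chr17:56442638-56442743, plus strand: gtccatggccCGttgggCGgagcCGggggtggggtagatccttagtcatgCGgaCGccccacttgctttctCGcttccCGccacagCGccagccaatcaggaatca
Uhrf1 shared start peak, chr17:56443589-56443735, plus strand: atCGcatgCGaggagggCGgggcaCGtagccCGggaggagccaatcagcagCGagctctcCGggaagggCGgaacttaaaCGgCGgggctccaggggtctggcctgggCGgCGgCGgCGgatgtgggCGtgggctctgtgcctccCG

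The next set holds the de novo methyltransferase genes, with the shared Dnmt3a start peak, the Dnmt3a intron peak that was higher in Spen KO clone 3, and the Dnmt3b start peaks of each list, which do not overlap.
Dnmt3a start peak, chr12:3806363-3806526, plus strand: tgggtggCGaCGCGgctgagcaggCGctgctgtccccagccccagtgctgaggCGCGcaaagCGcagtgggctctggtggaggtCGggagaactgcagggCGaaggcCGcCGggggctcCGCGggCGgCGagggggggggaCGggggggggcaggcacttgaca
Dnmt3a intron peak, chr12:3887511-3887710, plus strand: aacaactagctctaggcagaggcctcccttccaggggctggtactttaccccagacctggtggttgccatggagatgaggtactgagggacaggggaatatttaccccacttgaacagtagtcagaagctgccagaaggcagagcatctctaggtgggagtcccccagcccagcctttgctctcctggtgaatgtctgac
Dnmt3b start peak, Spen KO clone 3 only, chr2:153474990-153475184, plus strand: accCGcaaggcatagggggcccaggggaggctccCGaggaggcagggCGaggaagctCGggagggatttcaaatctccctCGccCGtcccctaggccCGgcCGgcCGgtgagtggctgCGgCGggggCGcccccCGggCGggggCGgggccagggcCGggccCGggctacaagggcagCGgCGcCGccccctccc
Dnmt3b start peak, WT only, chr2:153475941-153476140, plus strand: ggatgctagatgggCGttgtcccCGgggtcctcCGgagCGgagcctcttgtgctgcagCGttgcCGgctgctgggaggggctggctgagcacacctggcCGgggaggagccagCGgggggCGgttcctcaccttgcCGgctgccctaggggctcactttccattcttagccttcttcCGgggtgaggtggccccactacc

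The last set holds the Tet genes, with the peaks found in WT only at a RefSeq start of Tet1 and at the start of Tet3, the Tet2 start peak that was lower in Spen KO clone 3, and peaks inside Tet2 and Tet3 that stood the other way.
Tet1 peak at the RefSeq start, WT only, chr10:62350073-62350226, minus strand: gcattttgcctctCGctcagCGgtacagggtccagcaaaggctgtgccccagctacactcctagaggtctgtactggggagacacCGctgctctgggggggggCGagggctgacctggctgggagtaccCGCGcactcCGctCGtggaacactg
Tet2 start peak, chr3:133207355-133207467, minus strand: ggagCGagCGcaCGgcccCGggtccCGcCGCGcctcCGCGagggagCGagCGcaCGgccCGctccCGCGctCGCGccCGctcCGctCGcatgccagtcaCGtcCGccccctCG
Tet2 intron peak, Spen KO clone 3 only, chr3:133187710-133187909, minus strand: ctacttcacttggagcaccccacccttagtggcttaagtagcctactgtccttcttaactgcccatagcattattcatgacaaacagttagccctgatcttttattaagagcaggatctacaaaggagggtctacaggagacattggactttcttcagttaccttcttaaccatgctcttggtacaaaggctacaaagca
Tet3 start peak, WT only, upstream part, chr6:83391673-83391872, minus strand: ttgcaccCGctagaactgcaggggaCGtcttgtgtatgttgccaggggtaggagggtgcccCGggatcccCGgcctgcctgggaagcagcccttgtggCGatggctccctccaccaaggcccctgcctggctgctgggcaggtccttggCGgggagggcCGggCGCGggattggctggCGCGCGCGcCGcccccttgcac
Tet3 intron peak, higher in Spen KO clone 3, chr6:83371965-83372164, minus strand: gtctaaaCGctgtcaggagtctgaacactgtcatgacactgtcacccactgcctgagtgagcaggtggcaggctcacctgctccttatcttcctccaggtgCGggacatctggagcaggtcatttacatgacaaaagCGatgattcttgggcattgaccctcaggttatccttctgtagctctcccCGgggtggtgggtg
The stretches differ in length, and those at starts held between 7 (Dnmt1) and 23 (Tet2) CpGs, with 20 and 11 in those of Dnmt3b, while those of the 4 intron peaks held between 0 (Dnmt3a and Tet2) and 4 (Tet3).

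Dnmt1 (ENSMUSG00000004099.8, chromosome 9 from 20711650 to 20757317, minus strand), the enzyme that copies methylation to the new strand, had 3 WT peaks and 2 Spen KO clone 3 peaks, and both shared peaks were lower in Spen KO clone 3. The peak over the annotated start ranked at 67.3 and 72.8 in the WT replicates and at 57.6 and 45.2 in Spen KO clone 3. The peak in an intron 8807 bp downstream of the start ranked at 86.4 and 87.3 in WT and at 45.6 and 68.3 in Spen KO clone 3. The groups of replicates did not overlap at either peak, and the differences in score percentile were -19.0 at the start and -28.6 in the intron, the most negative of the 19. Both peaks lay in sequence that occurs once in the genome. They were unlike in base content, since the WT window of 300 bp held 25 CpGs at the start and 1 in the intron.

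Sequences of RefSeq promoters were matched to mm9 to see which starts the peaks cover. The peak at Dnmt1 covered the starts of RefSeq promoters 2 and 3, at 20757423 and 20757067, in both lists. The remaining RefSeq start, upstream of the gene body at 20764332, had no peak within 1 kb in either list. The WT list also held a peak at the start of Ppan, 64661 bp downstream of the Dnmt1 start at 20692458 to 20692854, with replicate percentiles of 56.0 and 49.7. It lay 18796 bp from the gene body, the farthest of the WT peaks inside the 20 kb limit. The nearest WT peak outside the limit lay 23811 bp from Dnmt1 and was weak, at 8.42 and 6.29, and the nearest of Spen KO clone 3 lay 21157 bp from Tet1, at 29.4 and 18.3.

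Uhrf1 (chromosome 17 from 56442744 to 56462909, plus strand), which brings Dnmt1 to newly copied DNA, lay in the densest of the windows, with 6 WT peaks and 5 Spen KO clone 3 peaks. Its shared start peak, 944 bp downstream of the first annotated start, covered the second RefSeq start at 56443736. This peak ranked at 60.5 and 69.9 in WT and at 48.7 and 69.8 in Spen KO clone 3, so the replicates overlapped. A second peak, at 56442526 to 56442949 over the first annotated start and the first RefSeq start, was found in Spen KO clone 3 only. Its replicates stood far apart, at 19.9 and 63.2, the widest gap among the member peaks of that list. The nearest WT peak to that start was the shared one, 703 bp away.

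The strongest peak at any of the loci was the start of Kdm4b, a histone demethylase gene downstream of Uhrf1, at 99.2 and 99.5 in WT and at 99.4 and 99.5 in Spen KO clone 3. The neighbour on the other side, Plin3, had 1 shared start peak and 2 weak peaks in WT only, at 56429065 to 56429709 and 56429880 to 56430179, with replicate percentiles between 5.42 and 11.4. A shared distal peak 29868 bp downstream of the Uhrf1 start ranked at 14.3 and 46.1 in WT and at 15.1 and 46.5 in Spen KO clone 3. Neither it nor the Kdm4b and Plin3 pairs differed beyond the replicates.

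Dnmt3a (chromosome 12 from 3806007 to 3914443, plus strand), a de novo methyltransferase, had 6 WT peaks and 4 Spen KO clone 3 peaks, of which 3 were shared. The start peak ranked at 50.8 and 53.7 in WT and at 48.4 and 43.4 in Spen KO clone 3, a small difference of -7.98 with no overlap of the replicates, which did overlap when it was ranked among start peaks only. A peak in an intron 81087 bp downstream went the other way, from 1.55 and 1.05 in WT, close to the bottom of that list, to 27.3 and 19.2. That intron peak was the one with the largest positive difference of the 19, at 19.98. It held no CpG in its window of 300 bp.

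Dnmt3a also makes a short form from an internal start, here the third RefSeq start at 3891744. No peak lay within 1 kb of it, the nearest being the intron peak 3966 bp away in WT and 3921 bp away in Spen KO clone 3. A shared peak upstream of the Dnmt3a start, at 3791773 to 3792164 in WT, ranked at 11.9 and 49.7 in WT and at 37.2 and 53.4 in Spen KO clone 3, and the wide gap between the WT replicates left the lines overlapping. The peaks found in WT only were at 3825589 to 3826031 and 3852562 to 3852947 in introns and at 3917799 to 3918237 downstream, with score percentiles of 5.72, 18.5 and 22.8. The peak found in Spen KO clone 3 only, at 3870851 to 3871429 in an intron, had a score percentile of 22.8. All 4 thus ranked in the lower part of their lists.

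Dnmt3b (chromosome 2 from 153475186 to 153513466, plus strand), the de novo methyltransferase that is abundant in mESCs, was the one locus with no shared peak. Spen KO clone 3 had a weak peak across the start, at 153474890 to 153475289, with replicate percentiles of 20.5 and 8.86. WT had a weaker one in the first kb of the gene, at 153475890 to 153476191, with 0.720 and 2.59. Both counted as a start peak under the rule of 1 kb but they covered different bases, the WT peak beginning 704 bp downstream of the first start and the other covering that start. Each lay in sequence that occurs once in the genome, with 14 CpGs in the WT window and 31 in the other. These were 0.466 and 0.712 of the CpGs expected from the bases, against medians of 0.797 and 0.787 at all start peaks. Of the peaks upstream, the one found in WT only, at 153457957 to 153458590, was the start of Commd7 with 8.18 and 5.86, and the one found in Spen KO clone 3 only, at 153468743 to 153469208, was distal with 20.2 and 48.7.

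Dnmt3l (chromosome 10 from 77504692 to 77526367, plus strand), the cofactor of both de novo enzymes, had no peak within 1 kb of any of its 4 annotated coding starts. The nearest peak, 1145 bp from the first coding start in WT and 1093 bp in Spen KO clone 3, covered a start of Aire, the autoimmune regulator gene next to it. That peak ranked at 18.9 and 25.1 in WT and at 18.1 and 3.06 in Spen KO clone 3, a difference of -9.50 in score percentile, with only a narrow space between the nearest replicates and an overlap when ranked among start peaks only. The start of Icosl downstream had a shared weak peak, at 2.38 and 19.9 in WT and at 3.12 and 15.5 in Spen KO clone 3. A peak found in WT only lay at 77527699 to 77527987, with 4.32 and 31.5, and 82.2% of its 31-base words occurred once in the genome. The other RefSeq starts of Dnmt3l, 7555 and 13048 bp into the gene, lay at least 6032 bp from any peak.

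Tet1 (chromosome 10 from 62267318 to 62361866, minus strand), with Tet2 the main Tet enzyme of mESCs, had no peak at its annotated coding starts in either list, the nearest being 5920 bp away in WT and 5915 bp in Spen KO clone 3. Only 57.3% of the 31-base words within 500 bp of the first annotated start occurred once in the genome, and because the authors kept uniquely mapped reads a peak there could be missed. The single RefSeq start, 11794 bp downstream at 62350072, lay in sequence that occurs once. A weak peak covered it in WT only, at 62349890 to 62350362, with 6.90 and 2.03, while the nearest peak of Spen KO clone 3 was 5387 bp away. Counted by RefSeq starts, a choice made after seeing the data, 7 of the 9 genes had a start peak in WT and 5 in Spen KO clone 3.

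The strongest peak inside Tet1 lay 33684 bp downstream of the first start and overlapped an exon. It ranked at 83.0 and 85.3 in WT and at 86.0 and 70.3 in Spen KO clone 3, and the replicates overlapped. A shared intron peak 6221 bp downstream of the first start ranked at 22.0 and 20.4 in WT and at 12.7 and 25.1 in Spen KO clone 3, also overlapping. The start of Ccar1, a cell-cycle and apoptosis regulator gene beyond the end of Tet1, was lower in Spen KO clone 3, at 72.0 and 83.2 against 94.7 and 89.0. Its WT peak ran into repeated sequence, with 88.4% of its 31-base words found once.

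Tet2 (chromosome 3 from 133126643 to 133207354, minus strand) had 3 WT peaks and 4 Spen KO clone 3 peaks. The peak over its start, the most CpG-rich of the own starts with 42 CpGs in the WT window of 300 bp, ranked at 52.8 and 62.5 in WT and at 32.3 and 38.2 in Spen KO clone 3. The replicates did not overlap, and the difference of -25.6 was the second most negative of the 19 after the Dnmt1 intron. In the WT peak 87.8% of the 31-base words occurred once in the genome, and none more than 2 times. Inside the gene the picture was different. A shared intron peak 10112 bp downstream overlapped between the lines, at 57.5 and 68.9 in WT and at 51.3 and 74.7 in Spen KO clone 3, although it was 534 bp wide in WT and 1148 bp wide in Spen KO clone 3.

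A further Tet2 intron peak, at 133187517 to 133188102, was found in Spen KO clone 3 only, with 49.97 and 49.1. It had the highest score percentile of the 6 peaks found in that list only, 48.6, and its replicates stood close together. It held no CpG in 300 bp and occurred once in the genome. Spen KO clone 3 also had a weak peak upstream of the start at 133212805 to 133213134, with 15.4 and 9.31, and WT one at 133222711 to 133223067, with 11.6 and 3.70, where 75.5% of the 31-base words occurred once.

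Tet3 (chromosome 6 from 83312367 to 83391672, minus strand), the Tet enzyme of the oocyte and zygote, had a start peak in WT only, at 83391196 to 83391985, with 38.1 and 53.3. This peak was 790 bp wide and covered both the annotated and the RefSeq start, in sequence that occurs once, with 32 CpGs in 300 bp. The nearest Spen KO clone 3 peak was 19219 bp from the start. That nearest peak, in an intron 19590 bp downstream, was shared and was higher in Spen KO clone 3, at 63.7 and 52.1 against 46.9 and 38.3 in WT. The start of Bola3 beyond the end of Tet3 was shared, at 26.4 and 72.0 in WT and at 37.4 and 67.8 in Spen KO clone 3, and did not differ beyond the replicates. By annotated starts, Tet3 was the only one of the 9 genes with a start peak in 1 list and none in the other.

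Tdg (chromosome 10 from 82092573 to 82113544, plus strand), the glycosylase that removes oxidised methylcytosine, had no start peak in either list, with the nearest peak 6155 bp from the first start in WT and 6163 bp in Spen KO clone 3. Around this start 80.7% of the 31-base words occurred once in the genome and none occurred more than 3 times. The RefSeq start, 10 bp away, had a CpG content of 0.988 of that expected from its bases, higher than that of the RefSeq start of Tet3, at 0.576. The nearest peak, the start of 1190007I07Rik upstream, was strong in both lines, at 95.04 and 88.5 in WT and at 91.4 and 87.5 in Spen KO clone 3. The other peak, at 82115319 to 82115815 at a start of Glt8d2 downstream, was found in WT only, with 60.2 and 47.2, and it had the highest score percentile of the 13 peaks found in that list only, 54.6.

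CpG content separated the starts from the distal peaks, as in the whole lists. CpG observed over expected, the number of CpGs relative to that given by the base composition of the 300 bp around the midpoint, had a median of 0.801 at own starts in WT and 0.783 in Spen KO clone 3, against 0.797 and 0.787 at all start peaks. With the starts of neighbouring genes included, the medians were lower, at 0.736 and 0.727. Distal peaks of the loci had medians of 0.269 and 0.292, against 0.236 and 0.235 over all distal peaks. A distal peak upstream of Dnmt3a, the shared one described above, stood apart with 0.772 in WT. The start peaks with the lowest values were those of Glt8d2, at 0.190, and of Plin3 in WT only, at 0.272 and 0.343.

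**Figure D4:**
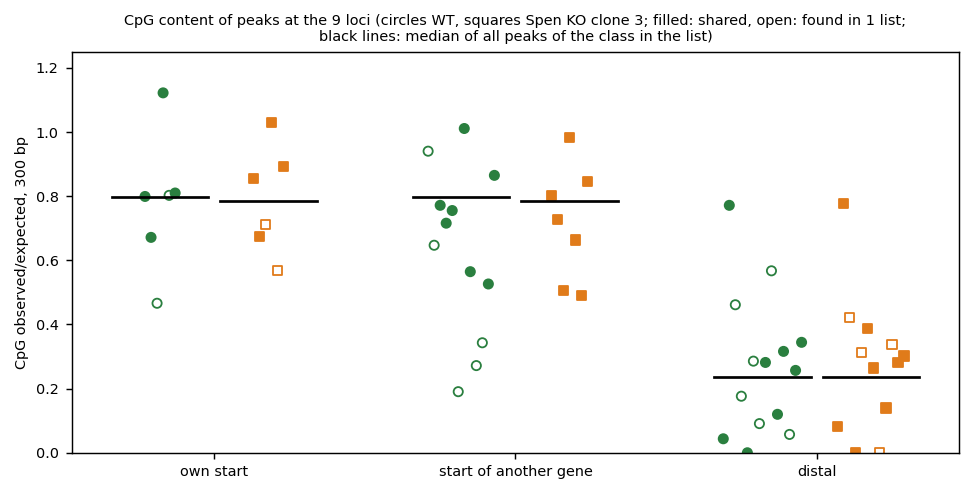
CpG observed over expected over 300 bp centred on each peak at the 9 loci, by position of the peak, with WT as circles and Spen KO clone 3 as squares, filled where shared and open where found in 1 list. Black lines are the medians of all peaks of the class in the list, 0.797 and 0.787 at starts and 0.236 and 0.235 at distal sites, and the members spread around them.

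Motifs were searched on both strands of the same 300 bp. The Sp1 motif GGGCGG was in 14 of the 18 start peaks in WT and 11 of the 13 in Spen KO clone 3, against 71.9% and 71.1% of all start peaks. The NFY motif CCAAT was in 9 and 8 of them, against 38.7% and 39.7%. The NRF1 motif GCATGCGC was at the starts of Dnmt1 and Ccar1 in both lists, against 4.33% and 4.16% of all. The E2F motif TTTCCCGC was at 1 peak, the Uhrf1 start peak found in Spen KO clone 3 only, against 2.11% of all start peaks of that list, and the octamer ATGCAAAT at 1, the Glt8d2 start peak found in WT only, against 1.41% of WT start peaks. The ETS motif CCGGAAGT and the cAMP response element TGACGTCA were both at the Ppan start in WT, against 7.16% and 3.00%. The E-box CACGTG was at the starts of Kdm4b and 1190007I07Rik in both lists, against 8.82% and 8.75% of all start peaks, and at 2 distal peaks in WT, against 5.25%. The Esrrb motif TCAAGGTCA was at none of the peaks. A match describes the letters of the window and is not a bound site.

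The wider pathway was taken from a list of 34 genes for targeting of methylation, its readers, base excision repair, deaminases and the methyl donor. Of these, 22 had a start peak in WT and 19 in Spen KO clone 3, with 18 in both, against 45.3% and 41.5% of all coding genes as above. The readers of methylated CpG were the most covered, with 7 of 8 in both lists. A start peak was in 1 list only at 4 of the 22 genes in WT and 1 of the 19 in Spen KO clone 3. These genes had no start peak in the other list, and the share of such genes among all coding genes was not computed. Counted by single peaks, a different measure, 20.6% and 13.4% of all start peaks had no partner. The start peaks in WT only were at Cxxc5, a CpG-binding zinc finger protein, and Ogt, the glycosyltransferase that binds Tet enzymes. They were also at Lig3, a DNA ligase of base excision repair, and Mat2a, which makes the methyl donor S-adenosylmethionine. The start peak in Spen KO clone 3 only was at Dppa3, which protects the maternal genome from demethylation in the zygote, with 7.88 and 4.66.

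Among the 18 genes with a shared start peak, 5 were lower and 2 higher in Spen KO clone 3, near the 28.8% and 13.7% of all shared start peaks. Ranked among start peaks only, a choice added after seeing the data, 5 were lower and 5 higher, against 24.8% and 16.4%. The most negative difference among the genes reported was at Neil1, a glycosylase of base excision repair, from 61.1 and 70.2 in WT to 28.8 and 22.0. It was followed by Kdm1b, a histone demethylase needed for methylation in oocytes, from 88.4 and 76.2 to 59.9 and 57.2. Both were lower beyond the replicates. Ogt and Zbtb33 are on the X chromosome, and the doxycycline state of the lists is not known. The 3 most positive differences, at Hells with 11.9, Zbtb33 with 7.64 and Mbd1 with 7.07, were within the replicates, although those of Hells and Zbtb33 were beyond them when ranked among start peaks only.

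Germline genes that promoter methylation is known to keep silent were also listed, 12 in all. Of these, 4 had a start peak in WT and 5 in Spen KO clone 3, with 3 in both, against 45.3% and 41.5% of all coding genes. Dazl, an RNA-binding protein of germ cells, ranked at 81.4 and 61.4 in WT and at 90.8 and 88.3 in Spen KO clone 3. Sycp1, of the synaptonemal complex, ranked at 25.2 and 28.3 in WT and at 39.3 and 57.8. Both were higher beyond the replicates, also when ranked among start peaks only, while Tdrkh overlapped. These are 2 of 3 shared start peaks, too few to set apart from the 13.7% (16.4% ranked among start peaks) of all that were higher. Of the rest, Mael, at 23.6 and 41.0, and Sycp3, close to the bottom at 4.15 and 2.38, had a start peak in Spen KO clone 3 only. Taf7l, on the X chromosome, had one in WT only, at 20.3 and 63.8. The share of all coding genes with a start peak in 1 list only was not computed, so these counts have no background.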

How the data were processed

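ATAC-seq was made from 6 samples of 3 lines, and the lists of 2 lines were used. The authors trimmed reads with CutAdapt, aligned them to mm9 with Bowtie2, kept unique, properly paired reads without duplicates, called peaks with MACS2 on each technical replicate and kept those passing an Irreproducible Discovery Rate (IDR) threshold. Versions are not given in the sources used here. The deposited lists hold, per peak, its coordinates, a value for each replicate on an unnamed scale and the IDR, at most 0.0500, so only ranks within a list were used. Which samples supplied the values is not stated, so the 2 values of a line could come from both doxycycline states. With uniquely mapped reads only, peaks in repeated sequence can be missed.

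Peaks on chromosomes 1 to 19 and X were kept, and 55 peaks of the WT list and 66 of the other were dropped. Genes and starts came from GENCODE vM1 (mm9), RefSeq promoters (GRCm38) of the members were matched by sequence, all 16 at 1 place, and 31-base words were counted on both strands. Overlap, percentiles and windows were tested on simulated data. Every member peak is named or counted. Of the wider list, the genes named are those with a start peak in 1 list and the 3 largest differences each way. A gene of that list that met this rule is not reported here. The members and lists were chosen with earlier results of these data known. Alternatives changed the flank, overlap, IDR limit, list length, start window, score and ranking class. Python 3.11.15, numpy 2.4.6, pandas 2.3.3, numba 0.67.0 and matplotlib 3.10.9 were used.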

Additional observations from a re-analysis of the deposited data

How the results depend on the processing

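Of 56 recalculations of the 9 counts and medians, 40 stayed within 1.5 times the count or within 1 SD of the median. That SD, 2.44, is the spread between the medians from each replicate alone, so it cannot judge those 2. The median difference was negative in each. Ranking within starts and distal peaks left 4 of the 6 lower calls, without the starts of Dnmt3a and Aire. With flanks of 50 kb there were 50 WT and 44 Spen KO clone 3 peaks, 10 peaks in Spen KO clone 3 only and 11 of 34 shared peaks lower there, against 6 of 19. With gene bodies alone there were 16 and 15 peaks, 5 in WT only, and a median difference of -5.25, and with flanks of 10 kb 8 peaks were in WT only. Keeping an IDR up to 0.01 left 16 and 15 peaks, 3 and 2 of them in 1 list only, 1 shared peak higher in Spen KO clone 3 and a median difference of -11.4, from 13 pairs. Scoring by the lower of the values gave -5.80, and lists of equal length -5.07. Leaving out 1 replicate gave -4.22 without replicate 1 and -0.77 without replicate 2. No paired analysis was possible because each line has 1 list, with 2 replicate values whose samples are not named. No test was therefore made between the lines.
The depth of the lists is unknown, and a peak missing from a list can be accessible below the threshold. Most peaks found in 1 list ranked low.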
